A study of Mus musculus with 18 samples.

Results

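The 10 genes described here encode the thioredoxin Txn1 and 9 antioxidant enzymes: the peroxiredoxins Prdx1, Prdx2, Prdx5 and Prdx6, the glutathione peroxidases Gpx1 and Gpx4, the superoxide dismutases Sod1 and Sod2, and catalase (Cat). They were taken by symbol from a table of 17941 genes, and all 10 had a row and enough counts to be among the 10104 genes tested. RNA came from neutrophils of the spleens of untreated female NZBWF1/J mice, an F1 hybrid whose females become ill with a lupus-like disease as they age. There were 6 mice at 14 weeks, 6 at 20 weeks and 6 at 26 weeks, with 1 RNA sequencing library per mouse, and the ages stand for 3 stages of the disease. The gate took singlets that were DAPI-, CD11b+, Ly6G+ and Ly6b+, with Ly6C at an intermediate level. All groups share the strain, sex, tissue, gate and lack of treatment, and no strain without lupus is among the libraries analysed here, so progress of the disease and ageing without it cannot be told apart.

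Neutrophils make superoxide with the NADPH oxidase when they meet microbes or immune complexes. Superoxide dismutases convert it to hydrogen peroxide, which catalase, peroxiredoxins and glutathione peroxidases reduce. Thioredoxin returns electrons to the peroxiredoxins and is itself reduced by thioredoxin reductase, while glutathione serves the glutathione peroxidases, and both routes draw on NADPH.

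The coding sequences of Txn1, Gpx1 and Gpx4 are shown first because their catalytic codons mark what these proteins do and because these 3 genes were among those higher at 26 weeks. The stretches, from GENCODE M21 transcripts, run 5′ to 3′. Capitals mark codons 32 to 35 of Txn1, which hold the pair of reactive cysteines, and in both glutathione peroxidases the single in-frame TGA, read as selenocysteine, at codon 47 of Gpx1 and codon 73 of Gpx4.
Txn1: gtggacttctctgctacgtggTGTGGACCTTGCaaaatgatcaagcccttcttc
Gpx1: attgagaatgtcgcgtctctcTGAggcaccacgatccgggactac
Gpx4: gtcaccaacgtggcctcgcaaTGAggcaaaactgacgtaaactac

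Library totals ran from 5546624 to 17256379 counts. Levels are given as CPM, counts scaled to a common library size with TMM factors, a method that equalises the bulk of genes between libraries. The 13 neutrophil markers summed to 136000 to 196000 CPM at 14 weeks, 48300 to 119000 CPM at 20 weeks and 150000 to 292000 CPM at 26 weeks. Of 12 tested, 9 were lower and 1 higher at 20 than at 14 weeks. Elane, a gene of early precursors, had 0 counts at 14 and 20 weeks. Markers of other cells were highest at 20 weeks for monocytes and macrophages (10 genes, 200 to 516 CPM at 14 weeks, 562 to 1180 CPM at 20 weeks and 212 to 516 CPM at 26 weeks), where 3 of 3 tested were called higher than at 14 weeks. Among these, C1qa and C1qb had 0 counts at 14 and 26 weeks. Replicate 3 of 20 weeks stood apart, with counts in 8119 genes against 10357 to 13164 in the other libraries, and with 0 counts for Prdx1, Prdx2, Sod1 and Cat. At 26 weeks, ribosomal RNA took 0.0466 to 0.441% of counts, above every library of 14 weeks (0.0206 to 0.0262%) and of 20 weeks (0.00981 to 0.0458%). In bulk RNA, fewer cells of a type and less RNA per cell cannot be told apart.

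Per length of the main transcript, the 10 genes formed 2 tiers. Gpx1 had the highest mean over all 18 mice, 2340 ± 831 CPM per kb (SD), followed by Prdx5 (1140 ± 531 CPM per kb). Txn1 had 257 ± 183, Prdx6 239 ± 62.6 and Gpx4 138 ± 49.4 CPM per kb. Within an age the order of Txn1 and Prdx6 was not fixed. At 14 weeks Txn1 (124 to 211 CPM per kb) lay below Prdx6 (220 to 262 CPM per kb) in every mouse. At 26 weeks the means were 436 CPM per kb for Txn1 and 299 CPM per kb for Prdx6, with overlap. The other 5 genes were far lower, with Cat at 5.16 ± 2.72, Sod2 at 4.20 ± 1.89, Sod1 at 3.85 ± 4.76, Prdx2 at 3.26 ± 2.80 and Prdx1 at 1.91 ± 1.5 CPM per kb. Prdx1, Prdx2 and Sod1 had 0 to 133 counts per library, and the cause of these low counts was not tested. Over all mice the ranges of mean ± SD overlapped between neighbours among the 5 lower genes. At 14 weeks, however, Cat (3.81 to 8.67 CPM per kb) lay above Sod2 (1.69 to 3.21 CPM per kb) in every mouse. This order rests on the transcripts taken for length, 2613 bases for Cat and 5861 for Sod2. In CPM the 2 ranges overlapped at 14 weeks (9.95 to 22.6 for Cat and 9.88 to 18.8 for Sod2). At 20 weeks their means were 2.65 CPM per kb for Cat and 4.66 CPM per kb for Sod2. Gpx1, Prdx5 and Prdx6 together made up 86.9 to 93.8% of the summed CPM of the 10 genes in every library. That sum was 4112 ± 187 CPM at 14 weeks, 3873 ± 644 CPM at 20 weeks and 6922 ± 2112 CPM at 26 weeks (SD, n = 6 each).

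**Figure D1:**
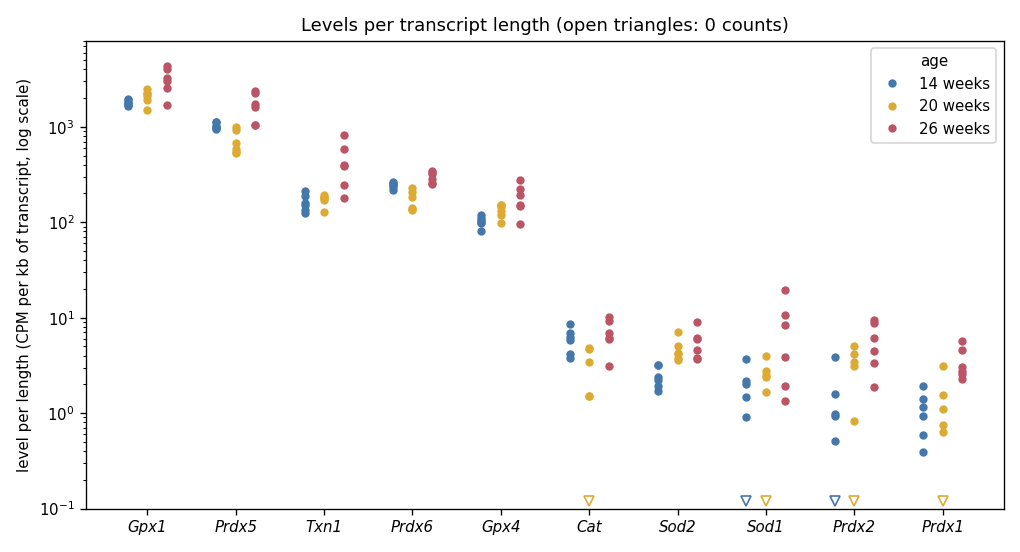
Level of each gene in CPM per kb of its main transcript (log axis), 1 point per mouse, at 14, 20 and 26 weeks, in order of the mean over all mice; open triangles at the foot mark libraries with 0 counts. Gpx1 and Prdx5 lie highest, and Cat, Sod2, Sod1, Prdx2 and Prdx1 lie below 20 CPM per kb in every library.

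Between 20 and 14 weeks, 2 of the 10 genes changed by edgeR's quasi-likelihood test (adjusted p under 0.05). Sod2 rose and Prdx6 fell, which is 1 gene in each direction, against 10.2% of all genes tested called (4.93% higher and 5.27% lower). The median log2 change was 0.18 over the 10 genes and -0.02 over all genes tested.

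Between 26 and 14 weeks 5 genes rose, namely Txn1, Prdx5, Gpx1, Gpx4 and Sod2, and 0 fell, where 11% of all genes tested were called (5.45% higher and 5.54% lower). The median log2 change was 1.00 over the 10 genes and 0.04 over all genes tested. Between 26 and 20 weeks 4 genes rose, namely Txn1, Prdx5, Prdx6 and Gpx1, and 0 fell, where 16% were called (8.03% higher and 7.98% lower). The median was 1.13 over the 10 genes, against 0.05 over all genes. A test of any difference among the 3 ages called 6 of the 10 genes, and 23% of all genes. These comparisons share libraries, so they do not count as separate evidence, and the p-values measure the spread between mice, which the labels call biological replicates.

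The composition of the libraries also differed at 26 weeks. In 26 against 14 weeks 49 of 78 tested genes of cytosolic ribosomal proteins were higher and 0 lower (median log2 change 1.92). Of 78 nuclear genes of the respiratory chain, 47 were higher and 0 lower (median 1.32). Of 12 neutrophil markers, 5 were higher and 4 lower (median -0.03). In 26 against 20 weeks 48 genes of ribosomal proteins were higher and 0 lower (median 1.77). In that comparison 47 genes of the respiratory chain were higher and 1 lower (median 1.28), and 7 neutrophil markers were higher and 1 lower (median 1.40). The part of these shifts in the results of the 10 genes was not tested. With ribosomal RNA share as a covariate, 0 of the 10 genes were called by edgeR in 26 against 14 and in 26 against 20 weeks. Of all 10104 genes tested, 0 and 7 were called. At unadjusted p under 0.05 by edgeR there were 0 and 2 of the 10 genes, beside 425 and 1224 of all genes tested. Because the shares at 26 weeks do not overlap those of the younger ages, age and ribosomal RNA share cannot be told apart. Without replicates 1 and 5 of 26 weeks, the libraries of highest share, 2 genes (Txn1 and Sod2) and 3 genes (Txn1, Prdx5 and Prdx6) were called in these comparisons. Beside them, 192 and 699 of all 10673 genes tested were called. Genes with under 1500 exon bases also took 18.9 to 36.2% of counts at 26 weeks, against 15.3 to 19.0% at 14 weeks and 11.2 to 15.6% at 20 weeks. With an offset for gene length per library, 1 gene (Sod2) was called in 26 against 14 weeks and 2 (Prdx5 and Prdx6) in 26 against 20 weeks. Beside them, 465 and 1696 of all 10104 genes tested were called.

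**Figure D2:**
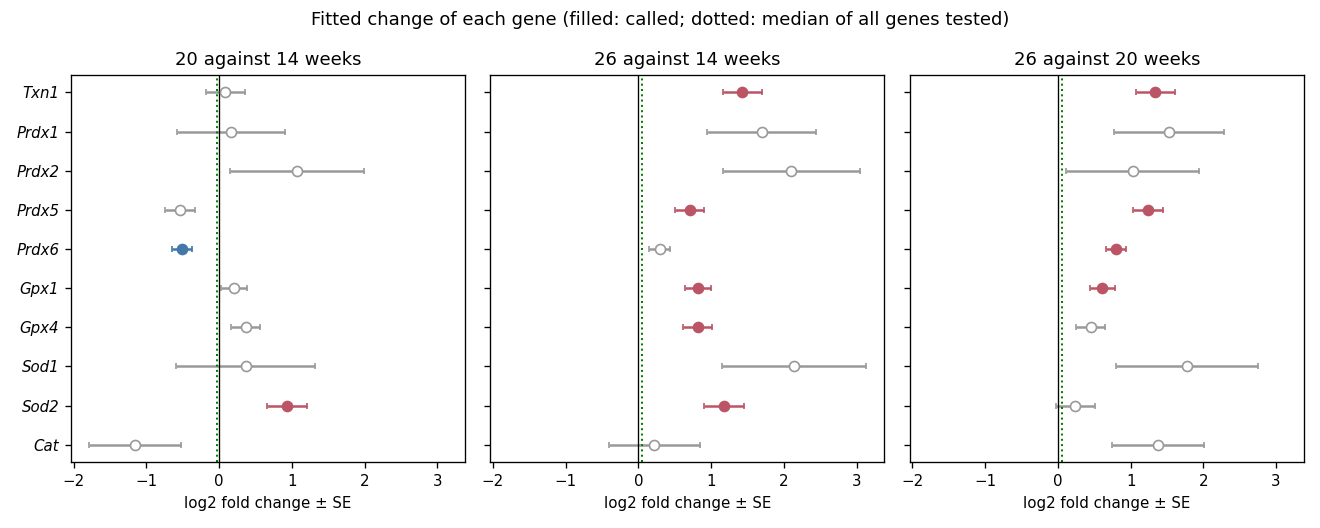
Fitted log2 fold change ± SE of each gene in the 3 pairs of ages, with filled points for genes called at adjusted p under 0.05 (red higher, blue lower) and a dotted line at the median of all 10104 genes tested. In 26 against 14 weeks all 10 points lie above 0 and 5 are called.

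**Figure D3:**
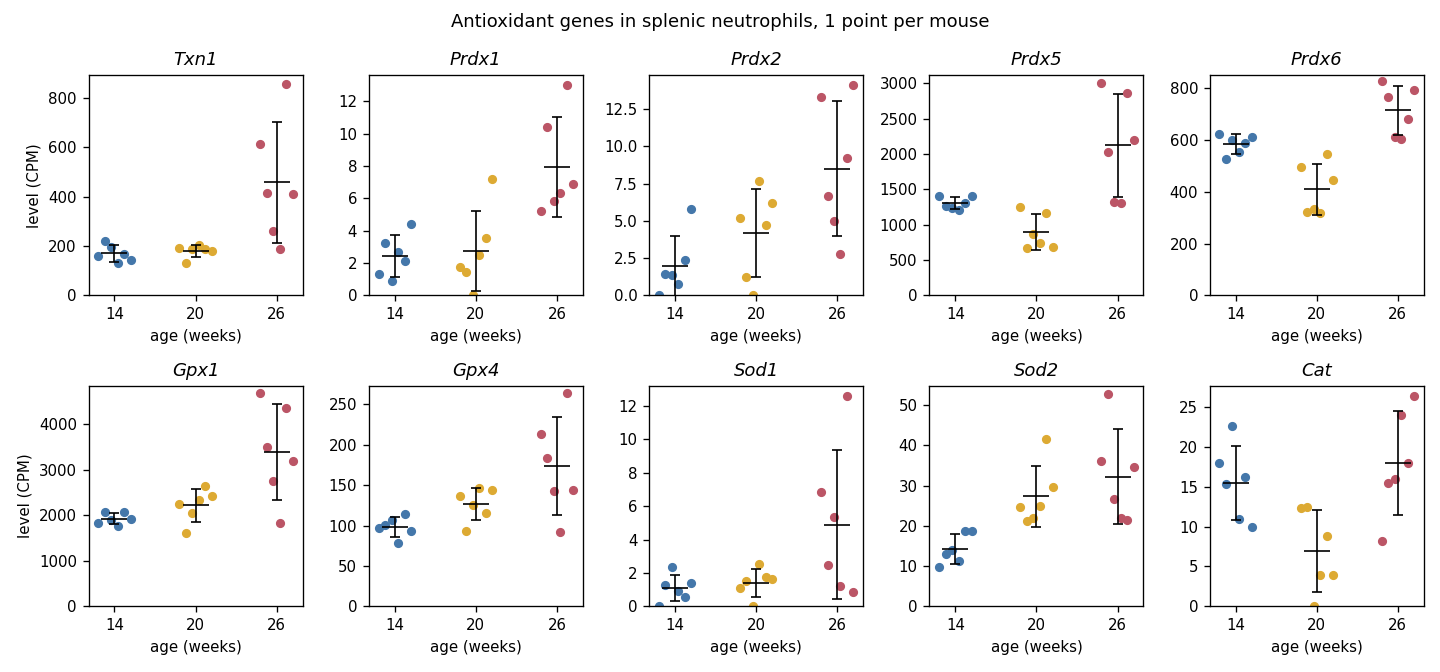
Level of each gene in CPM, 1 point per mouse, at 14, 20 and 26 weeks; the bars are mean ± SD (n = 6 mice per age) and each panel has its own axis from 0. Txn1 spreads between 190 and 857 CPM at 26 weeks and between 130 and 221 CPM at 14 weeks, and all Sod2 points of 20 and 26 weeks lie above those of 14 weeks.

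Txn1 (chr4:57943373-57956411, minus strand, GRCm38), the cytosolic thioredoxin that reduces disulfides in peroxiredoxins and other proteins, had a lowest, median and highest level of 130.0, 165 and 221 CPM at 14 weeks, 133, 188 and 205 CPM at 20 weeks, and 190, 413 and 857 CPM at 26 weeks. At 26 weeks 5 of 6 mice were above every younger mouse, and replicate 4 lay within the younger range. The log2 fold change was 1.43 ± 0.27 (SE) in 26 against 14 weeks (edgeR adjusted p = 0.00315) and 1.34 ± 0.27 in 26 against 20 weeks (edgeR adjusted p = 0.0021). Between 20 and 14 weeks it was 0.09 ± 0.26 (edgeR adjusted p = 0.896). The 6 mice of 26 weeks had 615, 415, 259, 190, 857 and 411 CPM of Txn1 and ribosomal RNA shares of 0.240, 0.127, 0.0698, 0.0466, 0.441 and 0.171% in replicates 1 to 6. The mouse with the highest Txn1 level thus had the highest share, and the mouse with the lowest had the lowest. Without replicates 1 and 5 the change against 14 weeks was 0.92 (edgeR adjusted p = 0.0346) and against 20 weeks 0.83 (edgeR adjusted p = 0.0229), and with the gene length offset 0.80 and 0.59 (edgeR adjusted p = 0.0549 and 0.089). With ribosomal RNA share as a covariate the changes were 0.18 and 0.10 (edgeR adjusted p = 1.0 and 0.958).

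**Figure D4:**
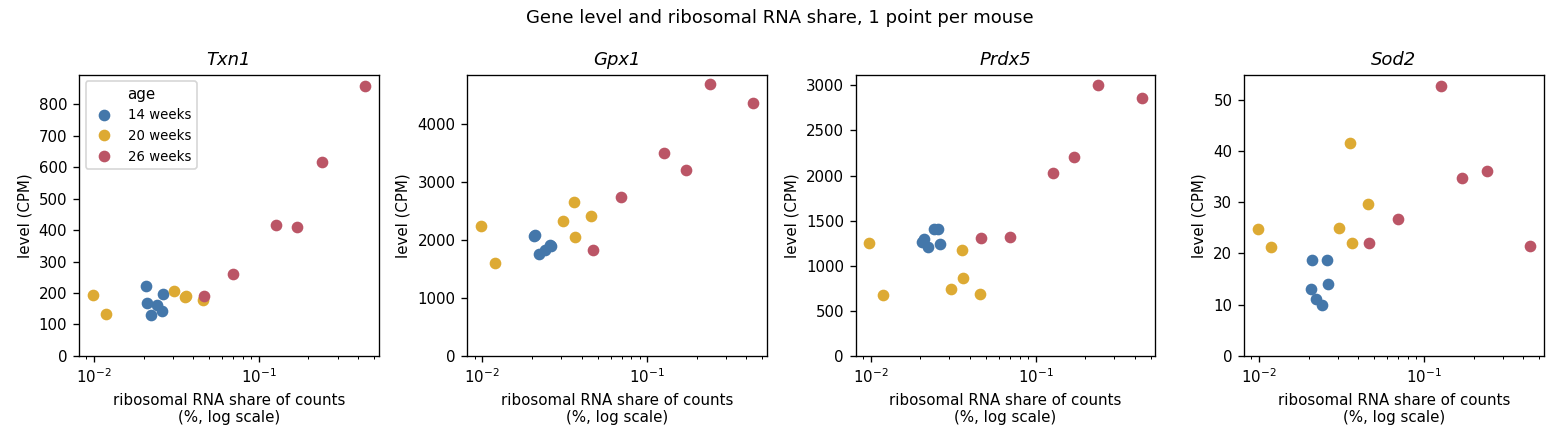
Level in CPM of Txn1, Gpx1, Prdx5 and Sod2 against the ribosomal RNA share of counts (%, log axis), 1 point per mouse, coloured by age. Every 26 week library lies to the right of the younger ones, and Txn1 reaches 857 CPM in the library with a share of 0.441%, while Sod2 is at 21.4 CPM there.

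Prdx5 (chr19:6906697-6910106, minus strand), a peroxiredoxin of mitochondria, peroxisomes and cytosol, had a lowest, median and highest level of 1210, 1280 and 1410 CPM at 14 weeks, 677, 802 and 1250 CPM at 20 weeks, and 1310, 2110 and 3000 CPM at 26 weeks. At 20 weeks 5 of 6 mice were below every 14 week mouse, and all 26 week mice were above every 20 week mouse. Prdx5 rose in 26 against 20 weeks by 1.24 ± 0.21 (edgeR adjusted p = 0.000677) and in 26 against 14 weeks by 0.70 ± 0.21 (edgeR adjusted p = 0.0321). The second call was lost in 7 of 18 refits that each left 1 library out (replicate 2, 3, 4 or 5 of 14 weeks or replicate 1, 5 or 6 of 26 weeks), with edgeR adjusted p = 0.0574 to 0.0896 and a change of 0.61 to 0.72, and with library total as a covariate or the GC offset (0.56 and 0.66, edgeR adjusted p = 0.098 and 0.093). The change was 0.37 with the gene length offset, 0.41 without replicates 1 and 5 of 26 weeks (edgeR adjusted p = 0.374 and 0.313) and 0.14 with ribosomal RNA share as a covariate. In 26 against 20 weeks that covariate left 0.67 for Prdx5 (edgeR adjusted p = 0.43). In 20 against 14 weeks the change was -0.54 ± 0.20 (edgeR adjusted p = 0.108), and it was called without replicate 1 of 20 weeks (-0.66, edgeR adjusted p = 0.0432). Trmt112, on the opposite strand, overlaps 19.1% of the exon bases of Prdx5, and without a stated strand setting their reads cannot be told apart there.

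Prdx6 (chr1:161240112-161251219, minus strand) encodes a peroxiredoxin that uses glutathione and also acts on phospholipids. Its lowest, median and highest levels were 525, 594 and 625 CPM at 14 weeks, 319, 389 and 547 CPM at 20 weeks, and 605, 724 and 826 CPM at 26 weeks. At 20 weeks 5 of 6 mice were below every 14 week mouse and all 6 were below every 26 week mouse. Prdx6 fell by 0.51 ± 0.14 on the log2 scale in 20 against 14 weeks (edgeR adjusted p = 0.0265) and rose by 0.80 ± 0.14 in 26 against 20 weeks (edgeR adjusted p = 0.000991). That rise was 0.63 with ribosomal RNA share as a covariate (edgeR adjusted p = 0.241). In 26 against 14 weeks it changed by 0.29 ± 0.14 (edgeR adjusted p = 0.223), a change that limma-voom with quality weights called (0.33, adjusted p = 0.0248). The call in 20 against 14 weeks was lost without replicate 1 or 6 of 14 weeks or replicate 2, 3 or 4 of 20 weeks, with edgeR adjusted p = 0.0512 to 0.0719 and a change of -0.50 to -0.45. It was also lost with the upper quartile scaling (-0.44), the gene length offset (-0.32) and the GC offset (-0.27). Over the same interval 9 of 12 tested neutrophil markers were lower and 1 higher (median log2 change -1.04), and the part of that shift in the Prdx6 result was not tested.

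Prdx1 (chr4:116685544-116700822, plus strand) and Prdx2 (chr8:84969587-84974834, plus strand), the main cytosolic peroxiredoxins that thioredoxin recycles, were far lower than Prdx5 and Prdx6 per length at every age. They had 0 to 133 counts per library. In the same libraries 85 genes of cytosolic ribosomal proteins took 0.0774 to 0.353% of counts. The cause of these low counts was not tested. Prdx1 had a lowest, median and highest level of 0.896, 2.39 and 4.41 CPM at 14 weeks, 0, 2.12 and 7.23 CPM at 20 weeks, and 5.21, 6.62 and 13 CPM at 26 weeks. All 6 mice of 26 weeks were above every 14 week mouse, yet the log2 change of 1.69 ± 0.75 was not called (edgeR adjusted p = 0.173). It was called without replicate 3 of 20 weeks (edgeR adjusted p = 0.0376), a library that is in neither age but shares the estimate of spread, by DESeq2 (1.75, adjusted p = 0.0494), by limma-voom with quality weights (adjusted p = 0.00721) and in the edgeR fit of only these 2 ages (adjusted p = 0.0208).

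Prdx2 had a lowest, median and highest level of 0, 1.42 and 5.80 CPM at 14 weeks, 0, 4.95 and 7.65 CPM at 20 weeks, and 2.80, 7.95 and 14.1 CPM at 26 weeks. Its change in 26 against 14 weeks was 2.10 ± 0.95 (edgeR adjusted p = 0.177) and the ages overlapped. A count of 0 allows a level of up to 3 counts, or 0.312 CPM in replicate 1 of 14 weeks and 0.287 CPM in replicate 3 of 20 weeks, for counting error only. By limma-voom with quality weights Prdx2 was called (2.45, adjusted p = 0.016). Red cells are rich in Prdx2, and 9 erythroid genes summed to 0.172 to 5.13 CPM at 14 weeks, 0 to 10.7 CPM at 20 weeks and 1.93 to 268 CPM at 26 weeks. The highest erythroid sum and the highest Prdx2 level were both in replicate 6 of 26 weeks. In replicates 1 to 6 of that age Prdx2 was at 13.3, 6.67, 4.99, 2.80, 9.22 and 14.1 CPM. The erythroid sums of these mice, in the same order, were 4.38, 7.09, 1.93, 19.7, 39.0 and 268 CPM. Alas2, Slc4a1 and Rhag had 0 counts at 14 and 20 weeks. The part of red cells in the Prdx2 values was not tested. Prdx2 shares 5.67% of its exon bases with Junb and 5.80% with Rnaseh2a on the opposite strand.

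Gpx1 (chr9:108338903-108340343, plus strand), the cytosolic and mitochondrial glutathione peroxidase, had a lowest, median and highest level of 1760, 1900 and 2080 CPM at 14 weeks, 1600, 2290 and 2650 CPM at 20 weeks, and 1820, 3350 and 4690 CPM at 26 weeks. At 26 weeks 5 of 6 mice were above every younger mouse, and replicate 4 (1820 CPM) lay within the younger range. The change was 0.82 ± 0.18 in 26 against 14 weeks (edgeR adjusted p = 0.00634) and 0.61 ± 0.18 in 26 against 20 weeks (edgeR adjusted p = 0.0217). The first call was lost with the gene length offset (0.28, edgeR adjusted p = 0.378), without replicates 1 and 5 of 26 weeks (0.56, edgeR adjusted p = 0.0704) and with ribosomal RNA share as a covariate (0.04). The second call was lost without replicate 2 of 20 weeks or replicate 1 or 5 of 26 weeks (0.53, 0.52 and 0.53, edgeR adjusted p = 0.0536, 0.0629 and 0.0578), in the fit of only these 2 ages (edgeR adjusted p = 0.0732) and with the GC offset (0.46), and its sign turned with the gene length offset (-0.01) and with the covariate (-0.14). Between 20 and 14 weeks Gpx1 changed by 0.20 ± 0.18 (edgeR adjusted p = 0.554).

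Gpx4 (chr10:80047166-80056439, plus strand), which reduces lipid peroxides in membranes and restrains ferroptosis, had a lowest, median and highest level of 78.1, 98.9 and 114 CPM at 14 weeks, 93.4, 131 and 146 CPM at 20 weeks, and 91.6, 164 and 264 CPM at 26 weeks. At 20 weeks, as at 26 weeks, 5 of 6 mice were above every 14 week mouse. The change was 0.81 ± 0.20 in 26 against 14 weeks (edgeR adjusted p = 0.0122), 0.36 ± 0.20 in 20 against 14 weeks (edgeR adjusted p = 0.288) and 0.45 ± 0.20 in 26 against 20 weeks (edgeR adjusted p = 0.132). The call in 26 against 14 weeks was lost with the gene length offset (0.37, edgeR adjusted p = 0.36), without replicates 1 and 5 of 26 weeks (0.53, edgeR adjusted p = 0.125) and with ribosomal RNA share as a covariate (0.04). The change in 26 against 20 weeks was called without replicate 4 of 26 weeks (0.58, edgeR adjusted p = 0.0231) and turned its sign with the gene length offset (-0.10). Of the windows of 100 nt, the read length, in its main transcript, 55.5% also occur in the transcripts of other genes, chiefly the pseudogene Gpx4-ps2, so its counts depend on how shared reads were treated, which the notes do not say. The same share was 4.35% for Prdx2, 4.24% for Sod1, 0.866% for Prdx1 and 0 for the other 6 genes.

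Sod2 (chr17:13006846-13040063, plus strand), the manganese superoxide dismutase of mitochondria, had a lowest, median and highest level of 9.88, 13.5 and 18.8 CPM at 14 weeks, 21.2, 24.8 and 41.5 CPM at 20 weeks, and 21.4, 30.7 and 52.7 CPM at 26 weeks. Every mouse of 20 and of 26 weeks was above every 14 week mouse. Sod2 rose by 0.94 ± 0.27 in 20 against 14 weeks (edgeR adjusted p = 0.0322) and by 1.17 ± 0.27 in 26 against 14 weeks (edgeR adjusted p = 0.00944), and changed by 0.24 ± 0.27 in 26 against 20 weeks (edgeR adjusted p = 0.616). The call in 26 against 14 weeks held in all 18 refits that each left 1 library out, without replicates 1 and 5 of 26 weeks (1.26, edgeR adjusted p = 0.0382) and with the gene length offset (1.45, edgeR adjusted p = 0.013), but not with ribosomal RNA share as a covariate (0.88). The call in 20 against 14 weeks was lost without replicate 1, 2, 3 or 4 of 14 weeks or replicate 5 or 6 of 20 weeks, with edgeR adjusted p = 0.0583 to 0.0822 and a change of 0.78 to 0.93, and without the filter on low counts (edgeR adjusted p = 0.0654). The monocyte and macrophage sums given above were also higher at 20 than at 14 weeks, without overlap. Sums of 9 B cell genes were 244 to 1870 CPM at 20 weeks and 49.5 to 199 CPM at 14 weeks (2 of 5 tested higher, Fcer2a at 0 counts at 20 weeks), and those of 7 plasma cell genes 349 to 2080 CPM at 20 weeks and 129 to 186 CPM at 14 weeks (3 of 3 tested higher, Sdc1 at 0 counts at 14 weeks). The plasma cell sum was 184 to 689 CPM at 26 weeks, where the same 3 of 3 were also higher than at 14 weeks and Tnfrsf17 had 0 counts. The B cell sum was 87.6 to 296 CPM at 26 weeks, with 0 of 5 tested called against 14 weeks. For monocytes and macrophages it was 212 to 516 CPM, with 0 of 3 called against 14 weeks. The part of these cells in the Sod2 results was not tested.

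Sod1 (chr16:90220754-90226329, plus strand), the cytosolic copper and zinc enzyme, had a lowest, median and highest level of 0, 1.11 and 2.36 CPM at 14 weeks, 0, 1.57 and 2.52 CPM at 20 weeks, and 0.850, 3.92 and 12.6 CPM at 26 weeks. These levels rest on 0 to 94 counts per library, and the cause of these low counts was not tested. At 26 weeks 4 of 6 mice were above every 14 week mouse, and the change of 2.14 ± 0.99 was not called (edgeR adjusted p = 0.194).

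Cat (chr2:103453849-103485160, minus strand), the haem enzyme that breaks down hydrogen peroxide in peroxisomes, had a lowest, median and highest level of 9.95, 15.8 and 22.6 CPM at 14 weeks, 0, 6.39 and 12.5 CPM at 20 weeks, and 8.18, 17 and 26.4 CPM at 26 weeks. At 20 weeks 4 of 6 mice were below every 14 week mouse. The changes were -1.16 ± 0.63 in 20 against 14 weeks (edgeR adjusted p = 0.293), 0.22 ± 0.62 in 26 against 14 weeks (edgeR adjusted p = 0.894) and 1.37 ± 0.64 in 26 against 20 weeks (edgeR adjusted p = 0.157). Cat averaged 18 ± 6.52 CPM at 26 weeks and 15.5 ± 4.69 CPM at 14 weeks (SD, n = 6 each).

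Ratios within a library compare members without a scaling factor. The 5 ratios Sod2/Sod1, Gpx1/Gpx4, Prdx1/Prdx2, Prdx5/Prdx6 and Cat/Gpx1 were compared between ages with exact permutation tests (two-sided, counts plus 0.5), and 0 of 15 tests passed after adjustment (lowest adjusted exact p = 0.26, where the smallest possible unadjusted p is 0.00216). The log2 Gpx1/Gpx4 ratio was 4.30 ± 0.13 at 14 weeks, 4.13 ± 0.20 at 20 weeks and 4.30 ± 0.16 at 26 weeks (SD, n = 6 each). Its differences were -0.17 in 20 against 14 weeks, 0.01 in 26 against 14 weeks and 0.17 in 26 against 20 weeks (exact permutation p = 0.115, 0.946 and 0.143). The log2 Prdx5/Prdx6 ratio ran from 1.05 to 1.26 at 14 weeks, from 0.64 to 1.37 at 20 weeks and from 1.11 to 2.07 at 26 weeks. Its mean differed by -0.04 in 20 against 14 weeks, 0.35 in 26 against 14 weeks and 0.39 in 26 against 20 weeks (exact permutation p = 0.825, 0.0519 and 0.0758). The lowest unadjusted value, 0.0173 by exact permutation, belonged to Cat/Gpx1 in 20 against 14 weeks (a difference of -2.42), in which replicate 3 of 20 weeks has 0 Cat counts. The difference without that library was -1.23.

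The antioxidant response element, bound by the stress factor NRF2, was looked for in the promoters because several of these genes are known NRF2 targets. RefSeq windows on GRCm38.p6, from 250 bases before to 50 bases after a gene start, were given for 9 of the 10 genes, Prdx6 being the exception. The core TGACNNNGC or TGAGNNNGC was searched on both strands and occurs in 27.8% of 32851 windows of all genes. The windows of Prdx1 and Sod1 hold it, and 0 of the windows of the other 7 genes, including Txn1, Prdx5, Gpx1, Gpx4 and Sod2, do. Both are printed 5′ to 3′ on the strand of the gene with the matches, which lie on the opposite strand, in capitals; the first Prdx1 match, TGACTCAGC on its own strand, contains the AP-1 motif TGACTCA. Prdx1 covers chr4:116685349-116685648 (plus strand) and Sod1 chr16:90220512-90220811 (plus strand).
Prdx1: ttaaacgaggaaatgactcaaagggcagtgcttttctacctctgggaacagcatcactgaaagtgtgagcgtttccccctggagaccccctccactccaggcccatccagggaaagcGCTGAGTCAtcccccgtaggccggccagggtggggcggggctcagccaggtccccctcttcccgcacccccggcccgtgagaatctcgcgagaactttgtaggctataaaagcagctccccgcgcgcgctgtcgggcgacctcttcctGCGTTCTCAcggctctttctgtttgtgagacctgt
Sod1: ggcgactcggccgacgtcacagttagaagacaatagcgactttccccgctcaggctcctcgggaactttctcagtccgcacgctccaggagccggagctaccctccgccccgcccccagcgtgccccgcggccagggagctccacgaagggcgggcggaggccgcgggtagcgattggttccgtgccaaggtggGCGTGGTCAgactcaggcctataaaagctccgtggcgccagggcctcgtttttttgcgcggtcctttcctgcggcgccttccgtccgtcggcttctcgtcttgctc

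The other genes of these pathways moved in mixed directions, and their lists are described by counts from the same fit. In 20 against 14 weeks 9 of 12 tested neutrophil markers were lower and 1 higher (median log2 change -1.04). The part of that shift in these lists was not tested. Of 13 tested partners of thioredoxin, 2 were higher and 3 lower in 20 against 14 weeks, 3 higher and 0 lower in 26 against 14 weeks, and 4 higher and 1 lower in 26 against 20 weeks. Their median log2 changes were -0.003, 0.23 and 0.90, beside -0.02, 0.04 and 0.05 for all genes tested. Txnip, the inhibitor of thioredoxin, averaged 1060 ± 390 CPM at 20 weeks and 554 ± 189 CPM at 14 weeks (0.93 ± 0.26, edgeR adjusted p = 0.0269). Txn2, the mitochondrial thioredoxin, averaged 46.8 ± 11.1 CPM at 26 weeks and 21.3 ± 9.24 CPM at 14 weeks (1.13 ± 0.31, edgeR adjusted p = 0.0236). Txnrd1, the cytosolic thioredoxin reductase, was not called between any ages (-0.26 ± 0.35 in 26 against 14 weeks, edgeR adjusted p = 0.74). Msra, a methionine sulfoxide reductase that thioredoxin recycles, fell to 210.0 ± 63.1 CPM at 20 weeks, against 432 ± 40.5 CPM at 14 weeks (-1.04 ± 0.17, edgeR adjusted p = 0.00102).

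Of 15 tested genes of glutathione synthesis and use, 1 was higher and 3 lower in 20 against 14 weeks, 2 higher and 1 lower in 26 against 14 weeks, and 3 higher and 1 lower in 26 against 20 weeks. The list had median log2 changes of 0.28, 0.90 and 0.42 in these comparisons. Gsr, the glutathione reductase, averaged 1760 ± 328 CPM at 26 weeks and 2420 ± 231 CPM at 14 weeks (-0.46 ± 0.13, edgeR adjusted p = 0.0275), the opposite direction to Gpx1 and Gpx4. Gclm, a subunit of the enzyme that starts glutathione synthesis, averaged 47.4 ± 21.9 CPM at 20 weeks and 82.5 ± 13.6 CPM at 14 weeks (-0.80 ± 0.24, edgeR adjusted p = 0.0397). Mgst1, a microsomal glutathione transferase, averaged 1790 ± 627 CPM at 26 weeks and 763 ± 263 CPM at 20 weeks (1.23 ± 0.23, edgeR adjusted p = 0.00132).

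Of 8 tested genes that supply NADPH, 4 were lower and 0 higher in 20 against 14 weeks, with a median log2 change of -0.58 against -0.02 for all genes (-0.31 in 26 against 14 and 0.31 in 26 against 20 weeks). G6pdx, the first enzyme of the pentose phosphate pathway, averaged 799 ± 157 CPM at 20 weeks and 1650 ± 286 CPM at 14 weeks (-1.05 ± 0.17, edgeR adjusted p = 0.000795), and Tkt, Pgd and Me2 were also lower. In 26 against 14 weeks G6pdx was lower too (-0.61 ± 0.17, edgeR adjusted p = 0.0235), together with Nnt, while Pgls was higher, and in 26 against 20 weeks Pgls and Tkt were higher and 0 of the 8 lower. In the list of the NADPH oxidase and myeloperoxidase, 2 of 7 genes were lower in 20 against 14 weeks (Cybb -1.28 ± 0.22 and Ncf1 -1.19 ± 0.19), 1 was higher in 26 against 14 weeks (Cyba 0.91 ± 0.20), and Cybb, Cyba and Ncf1 were higher in 26 against 20 weeks. That list had medians of -0.26, 0.06 and 0.34. The part of the lower neutrophil markers at 20 weeks in the NADPH supply and oxidase results was not tested.

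Of 12 NRF2 regulators and targets outside the 10 genes, 2 were higher and 1 lower in 20 against 14 weeks, 0 changed in 26 against 14 weeks, and 1 was higher and 2 lower in 26 against 20 weeks, with medians of 0.12, 0.04 and -0.025. The higher ones at 20 against 14 weeks were the ferritin chains Fth1 (0.94 ± 0.24) and Ftl1 (1.02 ± 0.22). Nfe2l2, which encodes NRF2, averaged 249 ± 56.7 CPM at 26 weeks and 338 ± 30.7 CPM at 20 weeks (-0.44 ± 0.14, edgeR adjusted p = 0.0382). Sephs2, which makes the selenium donor used for selenoproteins such as Gpx1 and Gpx4, was the single called gene of 6 for selenoprotein synthesis, lower in 26 against 14 weeks (-0.69 ± 0.20, edgeR adjusted p = 0.0349) and in 26 against 20 weeks (-1.24 ± 0.21, edgeR adjusted p = 0.000661). The median changes of the list were 0.14 in 20 against 14, 0.77 in 26 against 14 and 0.60 in 26 against 20 weeks. Its 6 genes include Selenbp1, which encodes a selenium-binding protein and not a part of that synthesis. Of 2 other tested genes, Prdx3 and Ccs, 0 were called between any ages (medians of 0.80 in 20 against 14, 0.78 in 26 against 14 and -0.02 in 26 against 20 weeks).

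**Figure D5:**
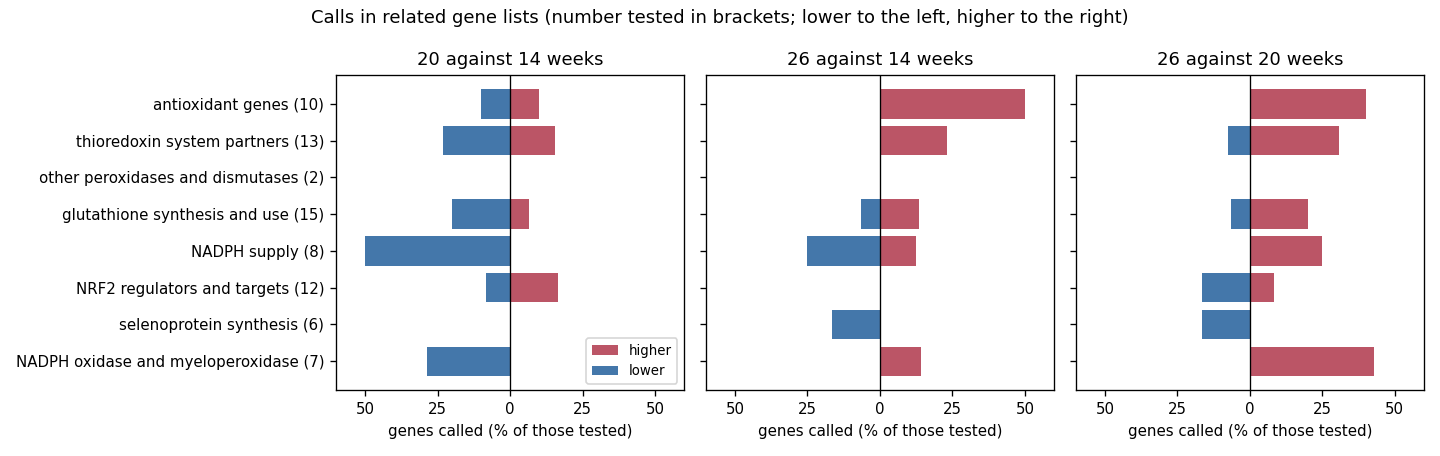
Share of tested genes called in each list (%, number tested in brackets), lower to the left in blue and higher to the right in red, for the 3 pairs of ages. The 10 antioxidant genes reach 50% higher in 26 against 14 weeks, and NADPH supply reaches 50% lower in 20 against 14 weeks.

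The genes whose profile was most like that of a member were found by the root mean square difference of centred log2 CPM over the 18 libraries, among 4229 well expressed genes. Txn1 was nearest to Cox6a1 (0.167), a subunit of cytochrome oxidase, and to Gng5 (0.188) and Sec61b (0.208). Prdx5 was nearest to Ethe1 (0.137), Tecr (0.140) and Pglyrp1 (0.152), and Prdx6 to Ldha (0.141), the lactate dehydrogenase. Gpx1 was nearest to Alox5ap (0.143), which encodes the activator of leukotriene synthesis, and Gpx4 to Brk1 (0.144). The nearest genes of Sod2 and Cat were Sumo3 at 0.342 and Slc35a1 at 0.496, and those of Prdx1, Prdx2 and Sod1 were 0.759 or more away. Such distances also depend on the spread of the gene itself. Its root mean square was 0.437 for Gpx1, 0.62 for Sod2 and 1.58 for Cat. Among the members themselves, Gpx1 and Gpx4 were the closest pair (0.170) and Prdx5 and Prdx6 the next (0.306). In each of these pairs the genes share libraries and depth, so the values describe likeness and carry no test.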

How the data were processed

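Neutrophils from the spleens of 18 mice were profiled by RNA sequencing (1 ng of cDNA, Nextera XT, single reads of 100 nt), per the labels' protocols. The authors deposited raw counts per gene symbol for all 18 libraries, for which the submitters' processing notes name the build GRCm38.p4 and the tools STAR 2.4.2a, Trimmomatic 0.32, DESeq, HTSeq 0.6.1 and DESeq2 1.12.3. The notes give no order of steps; annotation, strand setting and treatment of shared reads: not given in the sources used here. All value columns matched a library (0 did not). Totals ran from 5546624 to 17256379 counts, and floors and intervals cover counting error only.

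Groups and replicate numbers came from the titles. Genes were fitted with edgeR 4.0.16 in R 4.3.3 (TMM, filterByExpr by age, robust quasi-likelihood fit of all 18 libraries, age as the only term), with Benjamini-Hochberg adjustment over all 10104 genes tested and a threshold of 0.05. SE is the log2 fold change over the square root of F. CPM uses TMM library sizes, and CPM per kb the main GENCODE M21 transcript of each member. For gene length and GC content, 16820 symbols matched GENCODE M21 genes directly and 453 through a synonym, with 668 unmatched. The steps were tested on simulated data. Pairs of libraries of 1 age differed by more than counting error (mean chi-square per gene 26.1 to 182). The labels give no run or lane, so no batch could be entered.

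The members and lists were chosen with earlier results of these data known. Named genes are the 10 members and the 3 most alike genes per member. Up to 4 called genes per related list and comparison were also named by smallest p, of which the text gives a part. Genes named as uncalled (Txnrd1, Prdx3, Ccs, Selenbp1) were chosen after their values were seen. Alternatives were other scaling factors, DESeq2 1.42.0, limma-voom 3.58.1 with quality weights, no filter or a filter of 10 CPM in 6 libraries, only the 2 ages compared, a replicate block, library total as covariate, ribosomal and mitochondrially encoded genes left out, loess offsets for gene length and GC content, a pseudocount of 2 in ratios, and each library left out. Chosen after seeing the data were ribosomal RNA share as a covariate and the removal of replicates 1 and 5 of 26 weeks.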

Additional observations from a re-analysis of the deposited data

Results flagged for a closer look

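Each of 45 groups of 6 values (10 genes and 5 ratios at 3 ages) was checked for a single value far from the others by Dixon's criterion, which chance meets in about 1 group in 20. It picked out 3 ratios. In replicate 3 of 20 weeks the log2 Sod2/Sod1 ratio was 8.849, the highest of 6, and the log2 Cat/Gpx1 ratio was -15.384, the lowest of 6. Sod1 and Cat both had 0 counts in that library, which also had counts in the fewest genes (8119), so both values rest on the pseudocount of 0.5. In replicate 5 of 20 weeks the log2 Gpx1/Gpx4 ratio was 4.524, the highest of 6, with 2650 CPM of Gpx1 and 115 CPM of Gpx4.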

How the results depend on the processing

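Of the alternatives other than leaving out 1 library, 384 values kept their direction and side of the threshold, 25 weakened, 7 strengthened and 10 changed sign. With 1 library left out the counts were 777, 21, 3 and 9. The cause of these changes was not tested. In 20 against 14 weeks the count of called members was 1 with upper quartile scaling, beside 1055 genes. It was also 1 without the filter (849 genes) and with the length or GC offset (1011 and 937 genes). The main fit called 2 members and 1030 genes, and DESeq2 called 1563 genes. In 26 against 14 weeks limma-voom called 2679 genes and 8 members, the fit of only the 2 ages 1710 genes, and the length offset 465 genes and 1 member. With ribosomal RNA share as covariate 0 genes (425 at unadjusted p under 0.05 by edgeR) and 0 members were called, and without the 2 libraries of highest share 192 genes and 2 members. In 26 against 20 weeks the length offset left 1696 genes and 2 members, the covariate 7 genes and 0 members, and the removal of those libraries 699 genes. For any change with age, limma-voom called 4063 genes, the covariate left 824 genes and 1 member, and the removal 1325 genes. Leaving out 1 library gave 702 to 1263 genes and 0 to 3 members in 20 against 14 weeks, 652 to 1544 genes (652 without replicate 1, 733 without replicate 2 and 726 without replicate 6 of 26 weeks) and 4 to 6 members in 26 against 14 weeks, 1141 to 1911 genes and 3 to 5 members in 26 against 20 weeks, and 1780 to 2682 genes and 6 to 7 members for any change. The 0 was without replicate 1 of 14 weeks. Sign changes were all in values not called in that fit. They were, in 20 against 14 weeks, Prdx1 with the replicate block (-0.113) and with library total (-0.052), and Txn1 with library total (-0.073). They were, in 26 against 20 weeks, Gpx1 (-0.012) and Gpx4 (-0.104) with the length offset, Sod2 with the GC offset (-0.013), and Prdx2 (-0.269), Gpx1 (-0.137), Gpx4 (-0.31) and Sod2 (-0.035) with the covariate. With 1 library left out, Prdx1 in 20 against 14 weeks ranged from -0.404 to 0.422, Sod2/Sod1 from -0.224 to 1.241, Prdx5/Prdx6 from -0.089 to 0.059, and Gpx1/Gpx4 in 26 against 14 weeks from -0.029 to 0.056. Of the ratios, 0 were called. The share of calls that were higher was 48.3% in 20 against 14 weeks (74.1% and 73.5% with length and GC offsets), 49.6% in 26 against 14 weeks (62.0% with upper quartile, 59.6% with the stricter filter) and 50.2% in 26 against 20 weeks (25.9% and 28.6% with the offsets). The offsets moved the median of all genes to 0.19 and 0.19 in 20 against 14 and to -0.19 and -0.19 in 26 against 20 weeks, and upper quartile scaling to 0.14 in 26 against 14 weeks. Deviations of same-numbered mice had r from -0.0527 to 0.136 (18 pairs, 1 over 0.1). Mice of different numbers were not set beside them, so these values cannot exclude a pairing, and the main fit entered none. With the replicate block 962, 946, 1573 and 2081 genes and 3, 5, 4 and 6 members were called in the 3 comparisons and for any change, the added member being Prdx5 in 20 against 14 weeks (edgeR adjusted p = 0.0358). Prdx1, Prdx2 and Sod1 had 0 to 133 counts per library, and the part of depth in their missing calls was not tested.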
